A study of Drosophila melanogaster with 3 samples.

Results

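The 4 genes described here, kirre, rst, sns and hbs, encode the immunoglobulin-domain receptors through which fly myoblasts recognise each other before they fuse. They were chosen by name out of the 13968 protein-coding genes of the annotation, with the summit counts and peak ranks reported here in view, so those values are given as a description and no test was run on them. The gene bodies with 10 kb on each side held 48 of the 8188 summits of the IDR list (IDR is the irreproducible discovery rate, by which the authors cut the list), and 221 of the 30000 summits of the pooled list. The data are peak positions from chromatin immunoprecipitation and sequencing (ChIP-seq) of CG7839, also called Noc1, a nucleolar protein known for its part in assembly of the large ribosomal subunit.

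All samples came from a transgenic fly line that stably carries CG7839 with GFP at its C-terminus, and the chromatin was precipitated with an antibody against GFP. The material was whole embryos of mixed sex, collected between 0 and 24 h of age. The 3 biological replicates form 1 group, and the labels name no other genotype, treatment or stage. Whole embryos mix all cell types, so the lists do not tell which cells hold a peak. Each replicate list holds 30000 summits. The lists of the 3 replicates share 1 control used when the authors called peaks, no untagged embryos were analysed here, and the read depth behind the lists is unknown, so no background level was available for these genes.

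Muscle fibres of the fly embryo form when a founder cell fuses with fusion-competent myoblasts. Kirre, also called Dumbfounded, and Rst, also called Roughest, sit on founder cells and act redundantly there. Sns, or Sticks and stones, is the main partner on fusion-competent cells, and Hbs, or Hibris, is its relative. Contact between the receptors recruits adaptors and enzymes that remodel actin at the contact site. The same receptors also act in the pattern of the eye, in nephrocyte filtration slits and in the wiring of neurons.

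The genes differ greatly in size. In the dm6 assembly with Ensembl release 115, kirre (FBgn0028369) spans X:2740384-3134532 on the plus strand, which is 394149 bp, with 7 transcripts from 6 distinct starts. Introns make up 98.4% of it. The gene rst (FBgn0003285, X:2950399-2973834, minus strand, 23436 bp) lies wholly inside intron 3 of kirre on the opposite strand, so each summit in rst is also a summit in kirre.

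The windows that carry the main description are shown first, each as the 201 bp centred on a summit, on the plus strand of RefSeq's Release 6 plus ISO1 MT assembly, which has the dm6 coordinates. Capitals mark matches to the motifs searched, and a window without capitals held none of them. The first is the strongest summit in kirre, the second the strongest in kirre introns away from other genes and starts, and the third the strongest inside the nested gene CG32795. The fourth is the strongest over 10000 bp from any transcript start, where the capitals are a GAGA repeat on the minus strand and a Mef2 box. The fifth is the summit in intron 4 of rst, with a GATA site and a GAGA repeat. No sequence is shown for sns and hbs.
kirre intron 2, X:2744140-2744340: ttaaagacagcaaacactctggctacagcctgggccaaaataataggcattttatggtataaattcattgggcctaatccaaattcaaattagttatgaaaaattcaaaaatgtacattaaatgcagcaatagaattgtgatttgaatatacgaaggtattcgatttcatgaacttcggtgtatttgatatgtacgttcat
kirre intron 5, X:3097101-3097301: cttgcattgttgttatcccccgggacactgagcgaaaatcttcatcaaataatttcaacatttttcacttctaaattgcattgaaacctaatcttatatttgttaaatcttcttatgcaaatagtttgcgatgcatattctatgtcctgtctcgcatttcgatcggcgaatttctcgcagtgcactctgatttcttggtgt
kirre intron 2 inside CG32795, X:2786660-2786860: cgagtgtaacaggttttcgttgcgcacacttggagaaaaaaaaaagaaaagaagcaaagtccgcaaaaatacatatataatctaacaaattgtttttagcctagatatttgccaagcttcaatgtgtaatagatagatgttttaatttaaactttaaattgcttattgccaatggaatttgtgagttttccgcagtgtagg
kirre intron 5 far from starts, X:3022496-3022696: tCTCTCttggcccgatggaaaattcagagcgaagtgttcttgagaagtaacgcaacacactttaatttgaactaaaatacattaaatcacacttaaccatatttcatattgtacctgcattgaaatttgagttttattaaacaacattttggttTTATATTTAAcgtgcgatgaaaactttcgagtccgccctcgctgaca
rst intron 4, X:2956784-2956984: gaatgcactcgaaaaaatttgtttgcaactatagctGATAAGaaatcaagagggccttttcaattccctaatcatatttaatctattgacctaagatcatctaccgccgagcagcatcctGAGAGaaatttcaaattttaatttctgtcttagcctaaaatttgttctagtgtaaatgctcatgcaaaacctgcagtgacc

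The founder cell gene kirre held 45 summits of the IDR list between its first and last base, the most of any of the 13968 protein-coding genes. The next were Ten-a with 22, CG1677 with 21, shn with 20, fz2 with 19 and ush with 19. Then came rdx with 17 and Eip75B, pum and sick with 16 each. As ranked by signal value, each replicate's own 8188 strongest peaks placed 45, 38 and 40 summits in kirre in replicates 1, 2 and 3, or 41 ± 3.61 (SD, n = 3). The replicate 2 count includes a summit 394146 bp into the gene, at its very end. It matches an IDR summit just past the last base, which the IDR count leaves out. The lowest of the 3 replicate counts is above the IDR count of every other gene. The full replicate lists placed 165, 162 and 140 summits in kirre and the pooled list 179.

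A long gene has more room for summits, so counts were also taken per kb. Over its length kirre had 0.114 IDR summits per kb, against 0.0699 over arm X and 0.0612 over all 6 arms. In the strongest 8188 of the replicates it had 0.114, 0.0964 and 0.101 summits per kb, against 0.0692, 0.0670 and 0.0666 over arm X. The mean was 0.104 ± 0.00915 in kirre and 0.0676 ± 0.00136 over the arm (SD, n = 3 each), and every replicate had more summits per kb in kirre than over the arm. In the full lists the mean was 0.395 ± 0.0346 summits per kb in kirre and 0.231 ± 0.00796 over arm X (SD, n = 3 each).

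Among the 87 protein-coding genes of 100 kb or more, kirre ranked 7 by IDR summits per kb. Their median was 0.0243 and their highest value 0.168, which belonged to CG1677. Of the 87 genes, 21 held no IDR summit, and these include genes of arm Y such as kl-3 and kl-5. How well reads map in the genes without summits was not tested, and they lower the median. The gene is 5th by length among all protein-coding genes, and the 4 longer ones each held 0 IDR summits. Both the length and the density of kirre were thus above those of most of these genes, while shorter genes such as shn, with 0.343 summits per kb, and ush, with 0.295, were denser.

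**Figure D1:**
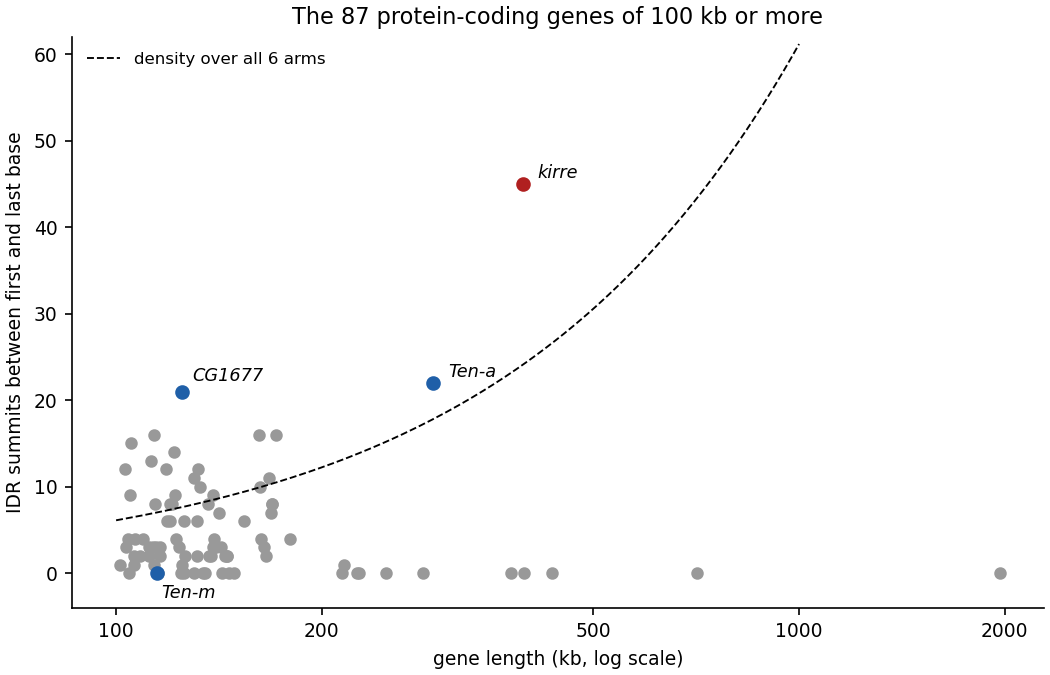
IDR summits in each of the 87 protein-coding genes of 100 kb or more (y axis) by gene length in kb (x axis, log scale). The red point is kirre with 45 summits, and the blue points are Ten-a with 22, CG1677 with 21 and Ten-m with 0. Grey points are the other genes, and the 4 genes longer than kirre lie at 0. The dashed line, drawn over part of the x axis, is the density over all 6 arms, 0.0612 per kb.

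The nested founder cell gene rst held 2 IDR summits, or 0.0853 per kb, against 0.0699 over arm X. Each replicate's strongest 8188 also held 2, although not the same 2 in every replicate. With replicate 1 or replicate 3 left out and a match required in both others, rst kept 0.0427 per kb. Those lists hold 5984 and 6130 IDR summits. The density of arm X was not taken on them, so the 0.0699 does not stand beside this value. In the full lists rst had 11, 11 and 12 summits in replicates 1, 2 and 3, a mean of 0.484 ± 0.0246 per kb, against 0.231 ± 0.00796 over the arm (SD, n = 3 each). So rst was denser than kirre in the full lists and less dense in the strong ones, from counts of a few summits.

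On the side of the fusion-competent cells, sns (FBgn0024189, 2R:8798489-8856091, plus strand, 57603 bp) held no IDR summit and no summit in the strongest 8188 of any replicate. Its arm, 2R, had 0.0539 IDR summits per kb. In the full lists sns had 11, 8 and 4 summits, a mean of 0.133 ± 0.0610 per kb, against 0.205 ± 0.00645 over arm 2R (SD, n = 3 each), and each replicate was below the arm. The replicates differed more in sns than in the other 3 genes, with the fewest summits in replicate 3.

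The gene hbs (FBgn0287864, 2R:15011396-15042134, plus strand, 30739 bp) held 1 IDR summit, or 0.0325 per kb, against 0.0539 over arm 2R, and 1 in the strongest 8188 of each replicate. In the full lists it had 11, 9 and 8 summits, a mean of 0.304 ± 0.0497 per kb, against 0.205 ± 0.00645 over the arm (SD, n = 3 each). It thus lay below its arm in the strongest 8188, from 1 summit, and above it in the full lists. In the upper 50% of the IDR list the same summit gave 0.0325 per kb, against 0.0266 over the arm. For scale, the 785 protein-coding genes of 20 to 60 kb, the size range of rst, sns and hbs, had a median of 0.0427 IDR summits per kb, and 31.5% of them held none.

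**Figure D2:**
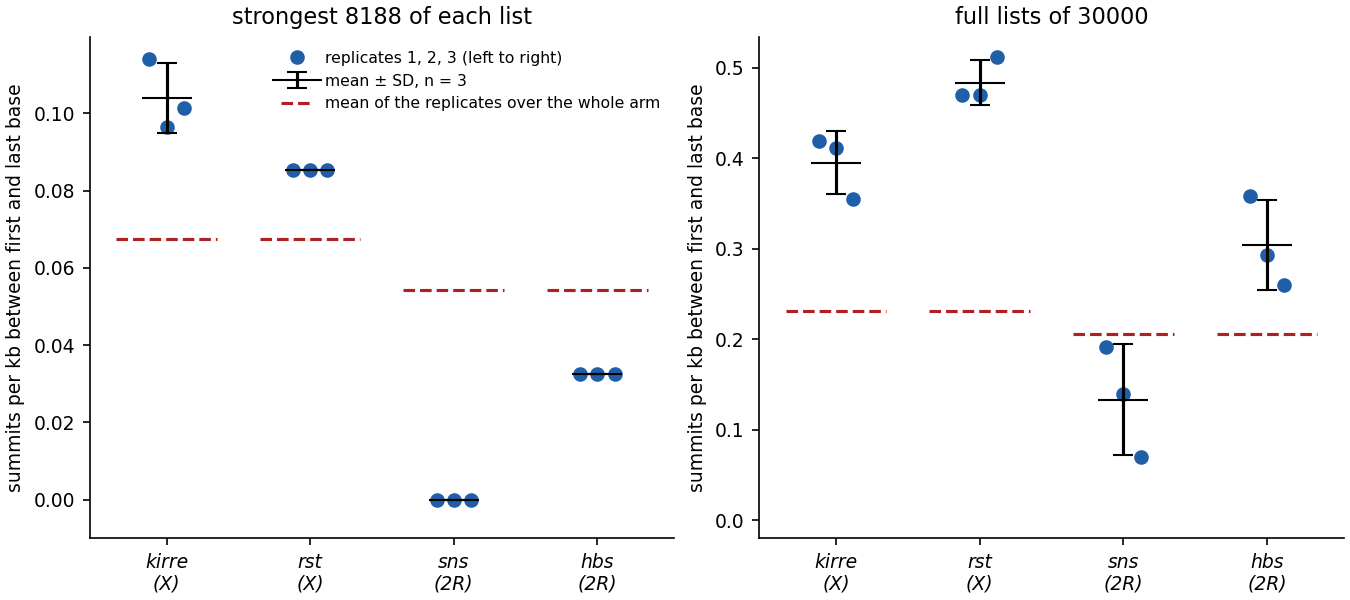
Summits per kb of gene length for kirre, rst, sns and hbs in replicates 1, 2 and 3 (blue points), with the mean and SD (black, n = 3) and the mean over the gene's whole arm (red dashes). The left panel uses the strongest 8188 summits of each replicate, where kirre at 0.104 ± 0.00915 lies above arm X and sns lies at 0, and the right panel uses the full lists, where rst, kirre and hbs lie above their arms and sns below. The y axes differ in scale.

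Of the 4 receptor genes, 3 held an IDR summit in the gene body, beside 15.8% of all protein-coding genes, and 4 of 4 held a pooled summit there, beside 26.5%. These shares include many short genes, so the receptor genes' length bears on the comparison. None of the 4 had an IDR summit within 500 bp of one of its transcript starts, called a promoter summit here, beside 22.8% of all protein-coding genes. In the pooled list all 4 had one, beside 37.6%. These counts describe genes chosen on the same lists.

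The promoter summits of the receptor genes were weak but close to the starts. At the shared start of both rst transcripts the pooled summit lay 92 bp downstream at rank 9662, and ranks in replicates 1, 2 and 3 were 12608, 7109 and 13389. The replicate 2 summit, 40 bp downstream, is within its own strongest 8188 and accounts for 1 of the 2 strong rst summits of that replicate. At the sns start the pooled summit lay 82 bp downstream at rank 11809, with nearest summits at ranks 12245, 12386 and 13965 in the replicates. At the hbs start it lay 2 bp downstream at rank 18638, with replicate ranks of 26559, 16019 and 19588.

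The starts of kirre differed from each other. The internal starts of transcripts RC and RD had a pooled summit 26 bp downstream of RC and 6 bp upstream of RD at rank 13053, and replicate summits at ranks 19022, 12515 and 24148. The start of transcript RA had a pooled summit 20 bp upstream at rank 21317, with a replicate 1 summit 3 bp away at rank 21348 and none within 500 bp in replicates 2 and 3. The start of RG had its nearest pooled summit 612 bp downstream at rank 20461, and in replicate 2 a summit 420 bp downstream at rank 15277. At the first start, of RE, the nearest pooled summit was 2914 bp downstream, and in replicate 3 alone a summit at rank 21041 lay 117 bp downstream. No kirre start had a summit in the strongest 8188 of any list within 500 bp.

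All 45 IDR summits of kirre lay in its introns and 0 in its exons. Introns make up 98.4% of the gene, so the count is near that share and shows no preference for introns. The first large intron, intron 2, held 11 IDR summits, or 0.0905 per kb. Intron 3, the longest at 132044 bp, held 9, or 0.0682 per kb. Intron 5, of 117679 bp, held 23, or 0.195 per kb, and intron 6 held 2. The strongest 8188 of replicates 1, 2 and 3 placed 23, 21 and 22 summits in intron 5, against 11, 7 and 10 in intron 2 and 9, 9 and 8 in intron 3. Each replicate thus had more summits in intron 5 than the sum over introns 2 and 3. Among the 141 introns of 50 kb or more, a limit chosen after the values were seen, intron 5 was 6th by density. Intron 2 was 24th and intron 3 was 35th. The 141 introns had a median of 0.0204 and a highest value of 0.305 per kb. How well reads map in them was not tested.

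In steps of 50 kb from its first base, kirre held 8, 2, 2, 3, 4, 12, 8 and 6 IDR summits, the last step being shorter. The step from 250 to 300 kb held 13, 11 and 10 summits in the strongest 8188 of replicates 1, 2 and 3. The steps from 50 to 200 kb held 1 to 3 summits each in every replicate. The widest stretch without an IDR summit ran for 45342 bp, from 48441 to 93783 bp into the gene. The median gap between neighbouring summits was 5428.5 bp, and 5 of 44 neighbouring pairs lay within 1000 bp of each other. In the pooled list, without the IDR limit, the same steps held 24, 18, 15, 13, 24, 35, 27 and 23 summits.

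**Figure D3:**
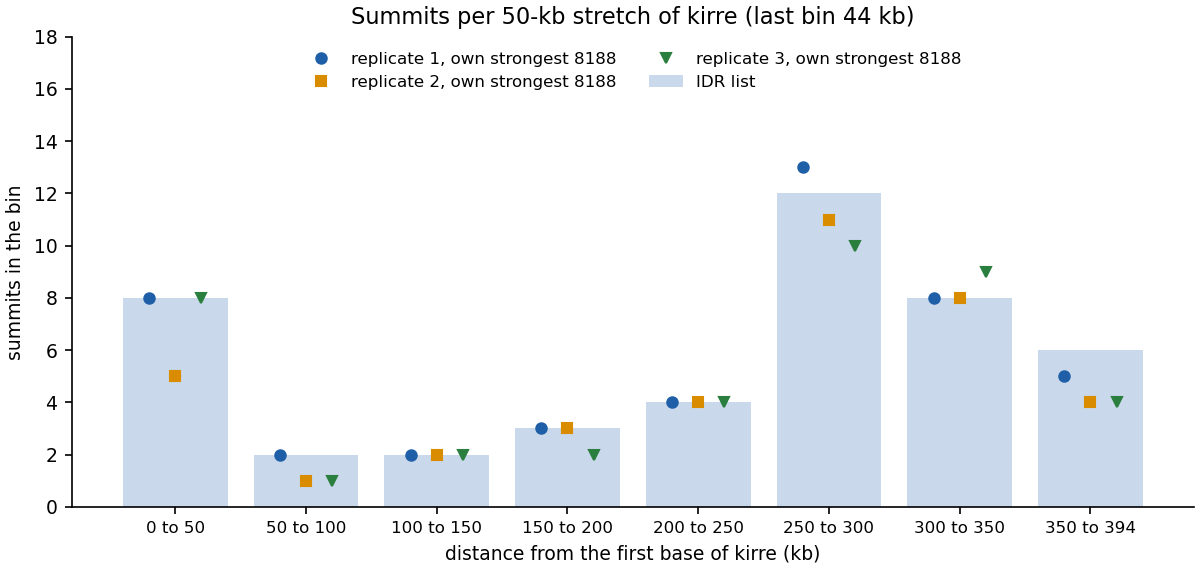
Summits per 50 kb step along kirre (y axis) by distance in kb from its first base (x axis), with the last step 44 kb long. Bars are the IDR list and points are the strongest 8188 of replicates 1, 2 and 3, which place 13, 11 and 10 summits in the step from 250 to 300 kb and 1 to 3 in each step from 50 to 200 kb.

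Most of these summits were far from transcript starts. The distance to the nearest start of any gene was between 164 and 36667 bp, with a median of 9238 bp. It was over 2000 bp for 37 of the 45 summits and over 10000 bp for 20. No share over all IDR summits or over the bases of kirre stands beside these counts. Within 500 bp of a start of any gene lay 5 of 45, or 11.1% (95% Wilson interval 4.84 to 23.5), against 3036 of all 8188 IDR summits, or 37.1% (36.0 to 38.1). Intervals on shares cover counting error only. Of those 5 summits, 2 were at starts of Syx4, which encodes a syntaxin of membrane fusion and overlaps the start of kirre, and 1 each was at CG3588, CG14419 and CG32795.

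Setting aside other genes and starts changed the density of kirre little. Introns of kirre outside other genes, promoters and exons covered 305.738 kb and held 36 IDR summits, or 0.118 per kb, against 0.0643 per kb over the introns of all genes outside promoters and 0.0836 per kb over those of arm X. The replicates' strongest 8188 placed 36, 29 and 30 summits in these parts of kirre, or 0.104 ± 0.0124 per kb (SD, n = 3). Only the kirre set was defined as outside other genes, so the sets compared differ in their filter. This split was chosen after the values were seen.

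Kirre is host to 22 genes that lie wholly inside it, of which 21 are protein-coding. IDR summits lay inside 3 of these 21, or 14.3%, beside 15.8% of all protein-coding genes, with 3 summits in CG32795, 2 in rst and 1 in CG3588. A promoter IDR summit was found at 3 of the 21, CG32795, CG14419 and CG3588, which is 14.3%, beside 22.8%. A pooled one was found at 8, or 38.1%, beside 37.6%. The shares were thus near or below those of all protein-coding genes. The eye pigment transporter gene w, which is among them, held no IDR summit and 1 pooled summit.

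**Figure D4:**
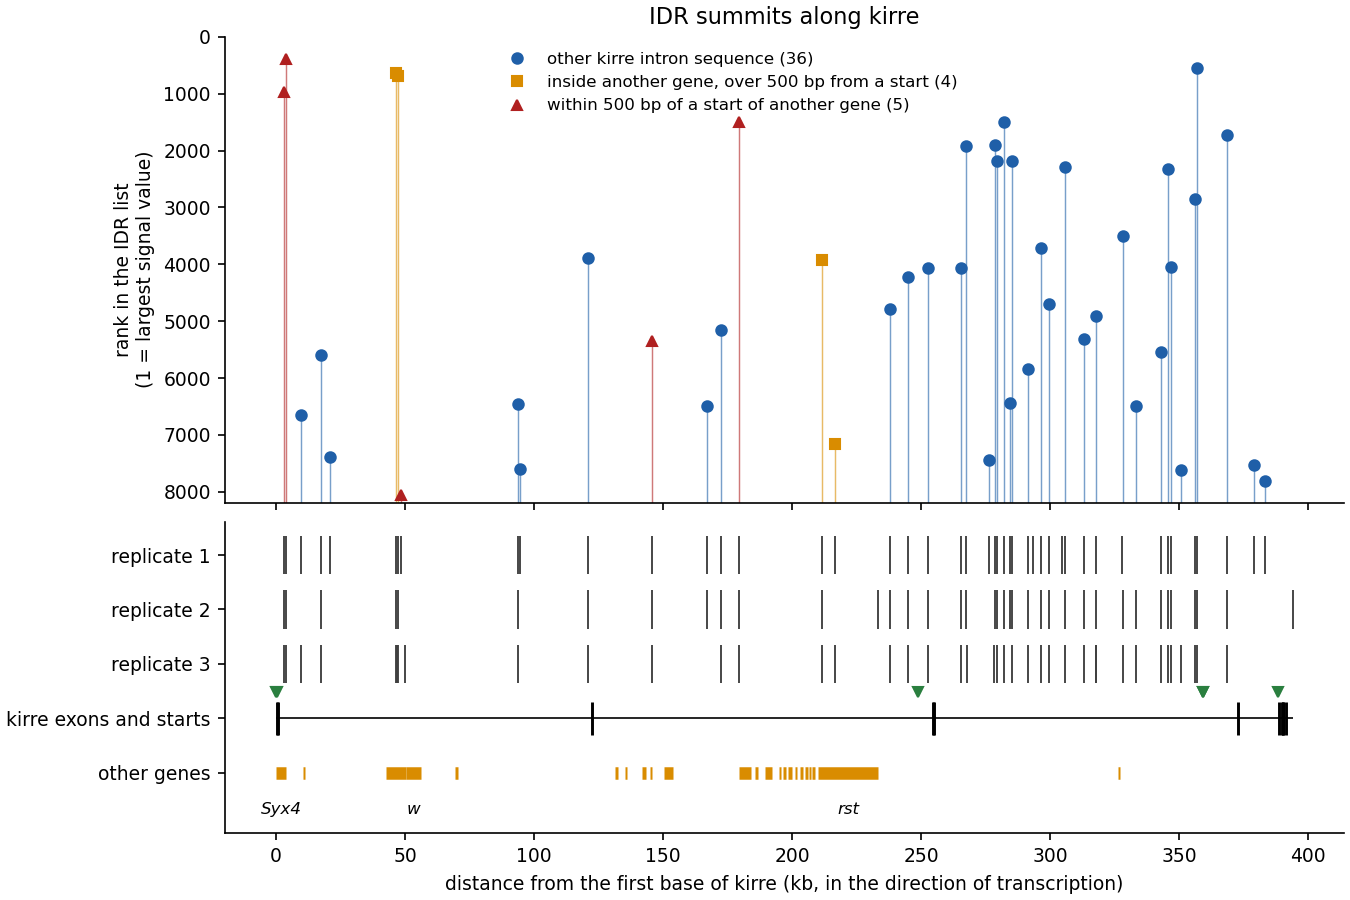
IDR summits along kirre. The upper panel gives each summit's rank by signal value (y axis, 1 at the top is the largest) by distance in kb from the first base of kirre (x axis), with 36 summits in other intron sequence as blue circles, 4 inside another gene as orange squares and 5 within 500 bp of a start of another gene as red triangles. The lower panel gives the strongest 8188 summits of replicates 1, 2 and 3 as ticks, with 45, 38 and 40 in the gene, above the kirre exons (black), the kirre starts (green) and the other genes (orange).

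By signal value the summits of kirre were spread over the whole IDR list rather than gathered at its top. The best rank was 390, the median 4217 and the worst 8052, and 22 of 45 were among the first 4094. Within the first 1000 ranks there were 5. The signal value is the authors' and has no stated scale, so ranks are compared within a list only. The last summits inside the IDR list ranked 7616, 7801 and 8052, and the first kirre summits outside it ranked 8214, 8381 and 8677 in the pooled list.

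The strongest summit, at X:2744240 in intron 2, lay 164 bp upstream of a Syx4 start at rank 390, and its ranks in replicates 1, 2 and 3 were 522, 333 and 318. The fifth strongest, at X:2743298, lay 340 bp upstream of another Syx4 start at rank 965, with replicate ranks of 954, 1075 and 884. The seventh, at X:2919949, lay 170 bp upstream of a CG3588 start at rank 1499, with replicate ranks of 1452, 1849 and 1250. These 3 sites of neighbouring genes ranked alike in all replicates.

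Inside CG32795, a nested gene of the opposite strand, lay a pair of strong summits in intron 2 of kirre. The summit at X:2786760 ranked 640, with 606, 663 and 612 in replicates 1, 2 and 3. Its neighbour at X:2787442 ranked 689, with 631, 730 and 655. Both were found in every replicate at nearly the same rank. The weakest IDR summit of kirre, at X:2788825 and rank 8052, lay 497 bp downstream of a CG32795 start, had replicate ranks of 7752 and 8580 in replicates 1 and 2 and had no match in replicate 3.

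In intron 5 the strongest summit, at X:3097201, lay 2349 bp upstream of the RC start at rank 555, and its replicate ranks were 596, 555 and 536. The others among the 10 strongest of kirre were all in intron 5 and away from starts. The summit at X:3022596 lay 33545 bp downstream of the RG start and ranked 1494, with replicate ranks of 1605, 1440 and 1595. That at X:3109108 ranked 1721, with 1532, 2027 and 1829 in the replicates. Next were X:3018871 at rank 1901, with 2117, 1926 and 1694, and X:3007978 at rank 1925, with 2049, 1743 and 2316. Every replicate placed each of these sites within its strongest 8188, and the windows printed above for X:3097201 and X:3022596 are examples of them.

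The IDR list was derived from the 3 replicates together and cut for agreement between them. Matches of its kirre summits back to the replicates are therefore a description and no independent check. A summit within 100 bp was among the strongest 8188 of all 3 replicates for 33 of the 45, or 73.3% (95% Wilson interval 59.0 to 84.0), against 67.3% of all IDR summits. It was in at least 2 replicates for 38 and in at least 1 for 45. Matched summits were a median of 13 bp apart and at most 80 bp. Only 2, 1 and 3 strong summits of replicates 1, 2 and 3 in kirre had no IDR summit within 100 bp. With the full lists as the source of matches, 44 of 45 were found in all 3 replicates.

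Over all sites of the full lists, strong and weak together, a smaller share was found in every replicate. The shares that follow are taken over sites of any replicate rather than over IDR summits. No whole-list share stands beside them. The full replicate lists together gave 276 sites in kirre, with summits within 100 bp merged, of which 75 were in all 3 replicates, 41 in 2 and 160 in 1. Of the 75, 31 had no IDR summit. In rst 5 of 23 sites were in all 3 replicates, in sns 2 of 17 and in hbs 1 of 20. These counts take summits between the first and last base only, so the hbs start counts for 2 replicates, since the replicate 3 summit there lies 13 bp upstream of the gene.

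The IDR summits of rst were not at its start. The stronger lay in its 3′ UTR at X:2951839, 21995 bp from the start, at rank 3924, with 4479, 3544 and 3697 in replicates 1, 2 and 3. The other, at X:2956884 in intron 4, ranked 7156, with 7186, 9212 and 7553 in the replicates, so that in replicate 2 it was outside the strongest 8188. Another, 4463 bp upstream of the rst start at X:2978297, ranked 4785 with replicate ranks of 6299, 4995 and 4721. It too lies in intron 3 of kirre, and the peaks do not tell which of the overlapping genes they belong to.

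The single IDR summit of hbs lay in its large intron 1 at 2R:15034937, 23541 bp into the gene. It ranked 2593, with 2695, 3189 and 2118 in replicates 1, 2 and 3. The strongest pooled summit of sns, at 2R:8814725 in intron 2, ranked 8559, just outside the IDR list, with replicate ranks of 9501, 11534 and 8783. All of these fell outside the replicates' strongest 8188. The only IDR summit within 10 kb of sns, at 2R:8860127, lay 237 bp upstream of RyR, the gene of the ryanodine receptor, and ranked 6178 with 3965, 11536 and 11542 in the replicates, so it was strong in replicate 1 alone. The only one in the flanks of kirre, at X:3134553 just past its last base, lay 317 bp upstream of a start of N, the gene of the Notch receptor, and ranked 3786 with 5032, 3456 and 3172.

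Base composition at the kirre summits was like that of the whole list. The median GC content of the 201 bp windows was 32.8% at the 45 kirre summits, between 24.9% and 46.3%, and 32.8% at all 8188 IDR summits. Windows laid end to end over kirre had a median of 40.8%. At 1000 bp to each side of the summits the median was 40.3% in kirre and 41.5% in the whole list. The GC content was lower at the summit than in these flanks for 39 of 45 kirre summits, or 86.7%, and for 6733 of all IDR summits, or 82.2%. The printed windows lie between 31.8% and 36.8%. In their middle 51 bp the 4 named for kirre had 19.6% to 29.4% GC, and the rst window had 43.1%.

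**Figure D5:**
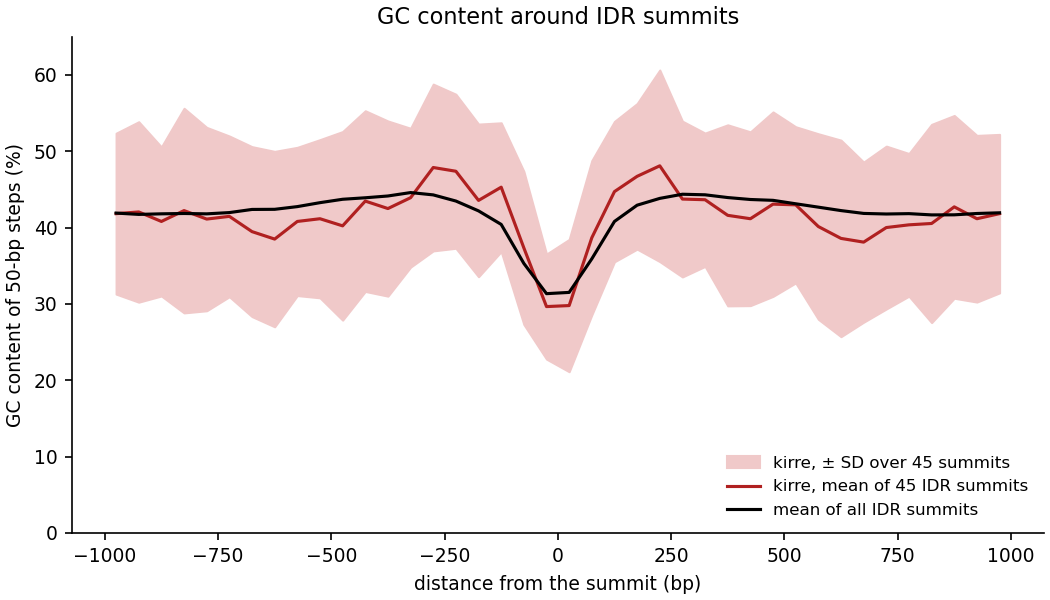
Mean GC content in steps of 50 bp (y axis, %) by distance from the summit in bp (x axis) for the 45 kirre IDR summits (red, band ± SD over summits) and for all 8188 IDR summits (black). Both dip at the summit, to 29.6% and 31.3% in the step just before it.

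Motif matches were counted on both strands of the same windows. The GATA site GATAAG was in 5 of 45 kirre windows, or 11.1%, against 10.6% of all IDR windows and 7.35% of windows laid end to end over kirre. The E-box CATATG, of the type bound by Twist, the mesoderm regulator, was in 4 kirre windows, or 8.89%, against 7.29% of all IDR windows and 6.22% of the laid windows. The Mef2 box, named for the muscle regulator Mef2, was in 9, or 20% (95% Wilson interval 10.9 to 33.8), against 14.4% of all IDR windows and 6.99% of the laid windows. The Mef2 box is made mostly of A and T, and the GC content of the summit windows was lower than that of the laid windows, as given above. The part of base composition in these shares was not tested.

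The GAGA repeat GAGAG was in 6 kirre windows, or 13.3%, against 19.1% of all IDR windows and 20.9% of the laid windows. The core CGATA of the BEAF-32 insulator protein was in 10, or 22.2%, against 23.5% and 18.5%. The DRE sequence TATCGATA, which contains that core, was in 0 of 45, against 2.08% of all IDR windows and 0.153% of the laid windows. The Myc E-box CACGTG was also in 0 of 45, against 1.34% and 2.45%. A count of 0 of 45 allows a share of up to 6.67% when 3 counts are taken as the limit, and its 95% Wilson interval reaches 7.87%. A match is a description of letters and not evidence that a factor binds there.

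Genes with a pattern most like kirre were found by the distance over gene length and summits per kb in the IDR list and in each replicate's strongest 8188, which are 5 quantities on a log2 scale. The nearest was Ten-a, a teneurin gene on X, at a distance of 1.22, then pum, which encodes an RNA-binding repressor, at 1.38, and sick, also at 1.38. Next were hth, a homeodomain gene, at 1.64 and Svil, which encodes an actin-binding protein, at 1.73. Ten-a had 22 IDR summits and 20, 19 and 19 in the replicates, or 0.0755 IDR summits per kb, against 0 summits in the related gene Ten-m. Of the large muscle structure genes set beside kirre, sls had 0 IDR summits and Msp300 had 2, or 0.0188 per kb.

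A list of 27 further genes of myoblast fusion was read beside the receptors. It holds adaptors and actin regulators, and also the muscle transcription regulators Mef2 and lmd and the cadherin gene CadN. An IDR promoter summit was found at 12 of 27, or 44.4% (95% Wilson interval 27.6 to 62.7), beside 22.8% of all protein-coding genes. The count was 8 with a limit of 250 bp and 12 with 1000 bp. It was 10 when a summit counted only for its nearest start. No share of all protein-coding genes was taken at these settings. A pooled promoter summit was found at 14, or 51.9%, beside 37.6%. The list was written with earlier results of these lists in view, and many of its genes serve actin in all cells. With a match required in both other replicates, the 12 became 7 without replicate 1, 7 without replicate 2 and 9 without replicate 3. These lists hold 5984, 6045 and 6130 IDR summits. No share of all protein-coding genes was taken on them, so the 22.8% does not stand beside these counts. An IDR summit lay in the body of 11 of 27, or 40.7%, beside 15.8%.

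Ranks at these promoters are given as the mean over replicates' full lists (SD, n = 3). The strongest was at Hem, a subunit of the Scar complex that starts actin branching, 285 bp upstream at a mean rank of 514 ± 108. Next was mbc, the exchange factor that activates Rac, 177 bp upstream at 1247 ± 253. The formin gene dia followed at 1831 ± 343, 305 bp upstream. The adaptor gene rols, whose product binds Kirre in founder cells, came at 2250 ± 20.03, 488 bp upstream. Arp3, a subunit of the actin-branching complex, was at 2345 ± 410, and Vrp1, partner of WASp, at 2418 ± 611. These 6 genes, and Rac2 at a mean rank of 6367 ± 1160, were in the strongest 8188 of every replicate.

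The other promoters of the list were weaker or varied more between replicates. The adaptor gene dock had a mean rank of 7857 ± 4356, with 8155, 3360 and 12056 in replicates 1, 2 and 3. Rho1 had 8963 and 3994 in replicates 2 and 3 and no match in replicate 1. CadN, of neural cadherin, had 8234 ± 340. The last were the adaptor gene drk at 8321 ± 2197 and the muscle regulator gene Mef2 at 10501 ± 5922, which are named although their values were seen first. The exchange factor gene siz, also named after its values were seen, had no IDR promoter summit but 9 IDR summits in its body, or 0.220 per kb.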

How the data were processed

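ChIP-seq of GFP-tagged CG7839 was analysed from the peak lists of 3 replicates, their pooled list and the IDR list. Per the text files that the authors deposited with them, peaks of each replicate were derived from its alignments and a control common to all 3, on dm6. Which aligner, peak caller and thresholds were used is not given in the sources used. The deposited signal value ranks peaks within a list only, the deposited −log10 q value was not used, and the summit is the interval start plus the deposited offset. Between 2 and 7 offsets per list lay past the interval and were placed at its end. All 8188 IDR peaks are the strongest 8188 pooled peaks.

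Annotation was Ensembl release 115 and the sequence RefSeq's, and 99.9% of annotated start codons read as such in that sequence. Arm densities were taken over 2L, 2R, 3L, 3R, 4 and X, which hold all 8188 IDR summits. Genes of arm Y, such as kl-3 and kl-5, were also counted among the protein-coding genes and add no IDR summit to the shares and medians. Introns are those of the longest transcript. Shares have 95% Wilson intervals. The depth is unknown, and the number of summits limits the precision. Nothing says how the replicates were collected beyond their being biological, so an SD is the spread between these 3 samples. Named genes were the receptors, the 10 strongest kirre summits and up to 5 of each other member, genes next to them, up to 10 bound fusion genes, the 5 genes most like kirre, the 10 with most summits, and Ten-a, Ten-m, sls and Msp300. The genes, lists and alternatives were chosen with earlier results of these data known. Python 3.11.15, pandas 2.3.3, numpy 2.4.6, scipy 1.17.1 and matplotlib 3.10.9 were used, and counting was tested on simulated data. Alternatives were other flanks, promoter widths, matching distances, list limits and leaving out each replicate.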

Additional observations from a re-analysis of the deposited data

How the results depend on the processing

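Of 66 alternatives over 11 results, 53 stayed close to the value given and 13 moved. No other outcome was scored, so a gene passing from below its arm to above it was not counted. Close means within 1.5 times for counts and for IDR summits per kb, within 1 SD for the replicate mean in kirre, and inside the 95% Wilson interval for the share found in all 3 replicates. With the upper 50% of the IDR list, a list of 4094, kirre held 22 summits or 0.0558 per kb, rst 0.0427 per kb, the 4 genes with flanks 24 summits and the fusion list 6 promoters. Arm X then had 0.0352 summits per kb and arm 2R 0.0266. The value of hbs stayed at 0.0325 per kb, from 1 summit, and so lay above its arm there. In full lists the replicates averaged 0.395 summits per kb in kirre, and 97.8% of its IDR summits were found in all 3. With 50% reciprocal overlap of intervals this share was 55.6%. In the pooled list 4 of 4 receptor genes had a promoter summit. Leaving out a replicate kept the IDR summits matched in both others (5984, 6045 and 6130). It gave 34 to 35 summits in kirre, 0.0427 to 0.0853 per kb in rst, where the lower value came without replicate 1 and without replicate 3, and 7 to 9 fusion promoters, the 7 without replicate 1 and without replicate 2. The sns and hbs values and the count of 0 IDR promoter summits in the receptor genes were the same under every other alternative run on them. Shares of all protein-coding genes were not taken for the upper 50% or with a replicate left out. Arm densities were not taken with a replicate left out. No paired analysis was possible because all samples are in 1 group.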

Other observations

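Transposable elements took up 24349 bp of kirre in 5 annotated copies. An IDR summit lay in 1 of them, a pogo copy of 186 bp in intron 5 (X:3058244, rank 4912, with 4903, 4603 and 6943 in replicates 1, 2 and 3), and none lay in the roo, mdg1, FB and Transpac copies. Over 50% of the 201 bp was masked as repeat in the reference at 2 of 45 kirre summits, or 4.44%, against 6.25% of all IDR summits.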
